A study of Homo sapiens with 12 samples.

Results

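Very long genes are described here as a set of 50 human protein-coding genes, each spanning 210.7 to 1502 kb of the genome, in cisplatin-resistant lung cancer cells. The set was compiled by name from genes known to be long and selected on TPM in these libraries, with earlier results of the same data in view. Fold changes and adjusted p-values of members come from a fit over all genes and are a description of the set, not a test of it. All 50 were found in a table of 60902 genes. TPM corrects reads for transcript length and expresses each gene as a share of its library. Genes whose TPM averaged 1 or more across 12 libraries were tested. By that limit 49 members were tested and 1, ZBTB20, was not. The member just inside the limit was PTPRK with a mean of 3.73 TPM, and ZBTB20 stood just outside at 0.738 TPM. The other 771 protein-coding genes of at least 200 kb that passed the same limit were taken from the annotation alone, with no choice by name, and are given beside the members throughout.

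RNA was sequenced from A549/DDP, lung adenocarcinoma cells of the A549 line made resistant to cisplatin (DDP). TRF + DDP cells received cisplatin under a cell culture model of time-restricted feeding (TRF), in which every cycle of 24 h held 6 h of complete medium and 18 h without serum and glucose. TRF cells followed the same cycle without the drug, DDP cells received cisplatin in complete medium (2 g/L glucose, 10% serum), and CON cells stayed in complete medium without drug, with 3 replicates in each group. No source used here states the dose or duration of cisplatin for the sequenced cells by themselves, and the nearest statement, for qPCR of A549/DDP cells under TRF with the drug, is 2 µg/mL over 48 h. The resistant line was maintained in cisplatin, and whether the drug was withdrawn before the experiment is not stated, so the CON and TRF cells may have met it earlier. All groups are 1 cell line.

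To make an mRNA, RNA polymerase II has to transcribe the whole gene, and in very long genes almost all of that path is intron that splicing removes. Cisplatin forms bulky platinum crosslinks on DNA, and such lesions are known to stop an elongating polymerase and to recruit transcription-coupled repair. Several very long genes, among them FHIT, WWOX and IMMP2L, lie at common fragile sites, regions where chromosomes break under replication stress.

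The members had a median span of 515.6 kb and a median mature RNA of 6.05 kb, which is 1.11% of the span at the median. Across the other 771 long genes the median span was 280.9 kb, and across the 11874 protein-coding genes tested it was 33.15 kb, with mature RNAs of 5.86 and 3.39 kb. The longest member was FHIT at chr3:59749310-61251459 on the minus strand, and the shortest was EPHB2 with 210.7 kb. Spans come from GENCODE v29 (GRCh38) and are those of the whole annotated gene, so a cell that uses a short isoform transcribes less.

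Between 13029 and 14028 genes reached 1 TPM per library, and mitochondrial genes took 8.29% to 8.55% of the TPM in TRF + DDP, 6.37% to 8.84% in TRF, 9.88% to 10.0% in DDP and 10.3% to 10.8% in CON. The epithelial keratins KRT7, KRT8 and KRT18 averaged 1137, 725.1 and 613.9 TPM, but EPCAM, CDH1, KRT19, NKX2-1, NAPSA and SFTPC had means under 1 TPM, so 6 of 10 lung adenocarcinoma markers were near 0. The 10 markers summed to 2692 to 2882 TPM in TRF + DDP, 2721 to 2886 TPM in TRF, 2314 to 2612 TPM in DDP and 1887 to 1954 TPM in CON, with CON below the other groups. Summed markers of leukocytes reached at most 1.13 TPM and of endothelium at most 0.56 TPM. The summed fibroblast markers, nearly all of it COL1A1, ranged from 5.92 to 6.99 TPM in TRF + DDP, 10.53 to 11.9 TPM in TRF, 16.49 to 21.0 TPM in DDP and 14.07 to 16.58 TPM in CON. The part of these markers in the results was not tested. In bulk RNA, fewer cells that make a transcript and less of it per cell cannot be told apart.

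The first question was what cisplatin did to the members in cells on the restricted medium. Of the 49 members tested, 42 were lower in TRF + DDP than in TRF and 0 were higher. A call means an adjusted p under 0.05 in limma, with Benjamini-Hochberg adjustment over all 13854 genes tested, and a fold over 1.5. Among all genes tested 6.1% were called lower and 10.2% higher, and among protein-coding genes 6.67% and 9.93%. At an unadjusted p under 0.05 the members counted 46 lower and 0 higher. Counts at this unadjusted limit are given here and below without a share of all genes, which was not counted. The median member fell by 1.15 on the log2(TPM + 1) scale, and the median of its mean TPM in TRF + DDP was 34.8% of that in TRF. In 45 of the 49 all 3 TRF + DDP libraries lay below all 3 TRF libraries, as they did in 472 of the other 771 long genes and in 3170 of the 13854 genes tested.

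The other 771 long genes moved the same way with smaller falls. Against TRF, TRF + DDP had 299 of them (38.8%) lower and 12 higher, and their median change was -0.43, against 0.06 for all protein-coding genes tested. The members together summed to 481.9, 477.9 and 459.7 TPM in TRF + DDP libraries, against 1111.4, 1122.4 and 1086.9 TPM in TRF libraries. DDP libraries held 1348.0, 1367.6 and 1405.2 TPM of the same genes, and CON libraries 1280.3, 1288.5 and 1309.6 TPM. The sum was thus lowest in TRF + DDP and the groups did not overlap.

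**Figure D1:**
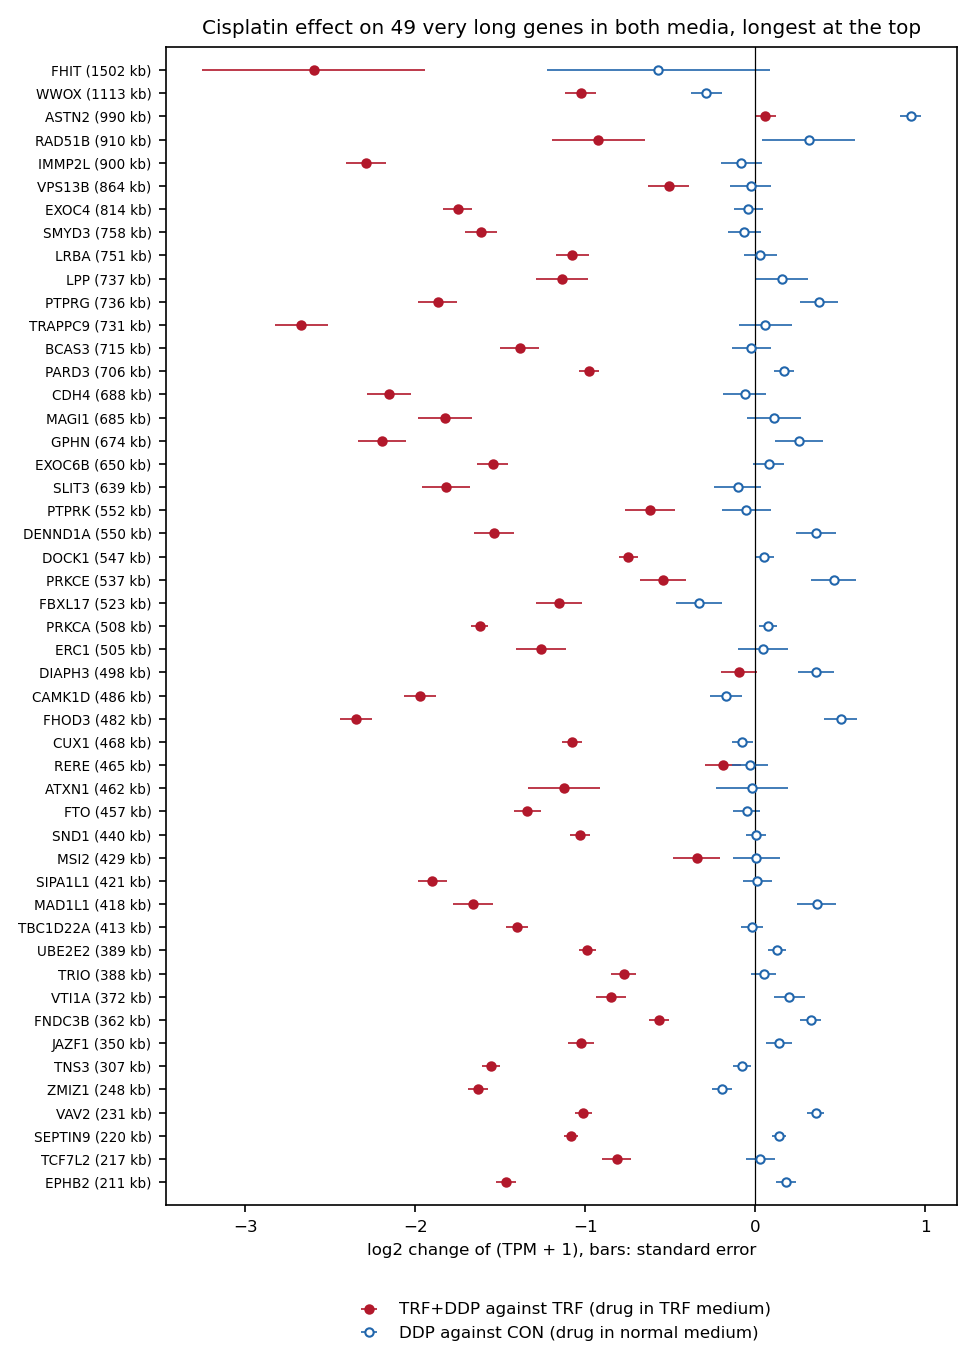
Log2 change of TPM + 1 (x axis, bars are standard errors) for each of the 49 members tested, ordered by gene span in kb from the longest at the top. Filled points give cisplatin under TRF (TRF + DDP against TRF) and open points cisplatin in complete medium (DDP against CON). The filled points lie left of 0 in 48 of 49 members with a median of -1.15, and the open points scatter around a median of 0.05.

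Members of membrane traffic and scaffolding included the member with the largest fall. TRAPPC9, a subunit of the TRAPPII complex that tethers vesicles at the Golgi, was at 0.44, 0.47 and 1.11 TPM in TRF + DDP libraries, against 8.97, 9.41 and 10.09 TPM in TRF libraries. It was at 10.5, 13.14 and 12.14 TPM in DDP and 10.99, 9.69 and 13.73 TPM in CON, so every TRF + DDP library lay far below the other 9. The fitted change between TRF + DDP and TRF was -2.67 ± 0.16 (SE, adjusted p = 6.73e-08, limma). In this group 7 of 9 members fell, among them GPHN, gephyrin, which anchors inhibitory receptors (-2.20), and the exocyst subunits EXOC4 (-1.75) and EXOC6B (-1.54). VPS13B, a lipid transfer protein of the Golgi, changed by -0.51 ± 0.12 (SE, adjusted p = 0.00398) and FNDC3B by -0.57 ± 0.06 (SE, adjusted p = 1.07e-05), both under the fold required.

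The 7 members for fragile sites, genome stability and ubiquitin all passed the test as lower. FHIT, a dinucleoside triphosphate hydrolase encoded across the fragile site FRA3B, was at 0.83, 0.22 and 0.18 TPM in TRF + DDP, against 12.82, 5.02 and 6.01 TPM in TRF. The groups did not overlap, but FHIT varied widely between libraries of every group. It was at 2.11, 2.17 and 16.01 TPM in DDP and at 12.07, 5.21 and 5.75 TPM in CON, and its change of -2.60 carried an SE of 0.66 (adjusted p = 0.00996, limma). IMMP2L, a subunit of a peptidase of the mitochondrial inner membrane, was at 1.05, 1.32 and 1.21 TPM in TRF + DDP, against 8.75, 10.72 and 9.76 TPM in TRF. Its DDP libraries held 7.59, 10.04 and 8.14 TPM and its CON libraries 8.88, 8.09 and 10.44 TPM, so TRF + DDP alone stood apart (-2.29 ± 0.12, SE, adjusted p = 2.9e-08). WWOX, an oxidoreductase with WW domains, was at 6.36, 5.79 and 5.36 TPM in TRF + DDP, against 11.84, 14.49 and 12.52 TPM in TRF (-1.03 ± 0.09, SE, adjusted p = 2.2e-06). MAD1L1 of the spindle checkpoint (-1.66), the F-box protein FBXL17 (-1.15), the ubiquitin-conjugating enzyme UBE2E2 (-0.99) and RAD51B of homologous recombination (-0.92) also fell. The call for RAD51B was lost without TRF + DDP replicate 1 or 2 or without TRF replicate 3.

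Among the 12 signalling members, kinases, phosphatases and regulators of small GTPases, 11 fell. PRKCA, protein kinase C alpha, was at 7.87, 7.27 and 7.74 TPM in TRF + DDP, against 25.42, 25.78 and 25.36 TPM in TRF. In DDP it was at 27.91, 27.92 and 27.81 TPM and in CON at 26.94, 25.57 and 26.69 TPM, so the 9 libraries outside TRF + DDP lay within a narrow range (-1.62 ± 0.05 between TRF + DDP and TRF, SE, adjusted p = 1.54e-09). CAMK1D, a kinase activated by calcium and calmodulin, was at 1.62, 1.36 and 1.57 TPM in TRF + DDP, against 9.39, 7.46 and 9.94 TPM in TRF (-1.97 ± 0.09, SE, adjusted p = 1.54e-08). The receptor phosphatase PTPRK, with the lowest mean of the members tested, was at 2.28, 3.33 and 1.91 TPM in TRF + DDP, against 4.22, 4.53 and 4.18 TPM in TRF. The groups were separate but close, its fall was 0.62 (SE 0.15, adjusted p = 0.00381), and the call was lost without TRF + DDP replicate 1 (-0.58) or 3 (-0.49). The others that fell were SIPA1L1, a GTPase-activating protein that switches Rap off (-1.90), PTPRG (-1.87) and the Rab exchange factor DENND1A (-1.54). The ephrin receptor EPHB2 (-1.47), TBC1D22A (-1.40), VAV2 (-1.01), TRIO (-0.77) and DOCK1 (-0.75) fell too. PRKCE, protein kinase C epsilon, changed by -0.54 ± 0.13 (SE, adjusted p = 0.0054), under the fold required.

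In the adhesion, polarity and cytoskeleton group 9 of 11 fell. FHOD3, a formin that builds actin filaments, was at 1.55, 1.59 and 1.77 TPM in TRF + DDP, against 12.2, 13.42 and 11.68 TPM in TRF, with no overlap (-2.35 ± 0.10, SE, adjusted p = 5.52e-09). CDH4, a cadherin of cell junctions, was at 7.71, 5.52 and 4.44 TPM in TRF + DDP, against 30.04, 29.57 and 27.9 TPM in TRF (-2.16 ± 0.13, SE, adjusted p = 8.2e-08). For both genes the TRF libraries were the highest of the 12. SLIT3, a secreted ligand of ROBO receptors, was at 1.27, 1.08 and 0.89 TPM in TRF + DDP, against 8.34, 5.13 and 5.84 TPM in TRF (-1.82 ± 0.14, SE, adjusted p = 6.43e-07). LPP, a zyxin-like protein of focal adhesions, was at 2.08, 1.95 and 1.84 TPM in TRF + DDP, against 5.28, 7.77 and 3.99 TPM in TRF (-1.14 ± 0.15, SE, adjusted p = 6.95e-05). Neither gene overlapped between the groups. SEPTIN9, a cytoskeletal GTPase and the most abundant member, was at 95.9, 94.52 and 88.8 TPM in TRF + DDP, against 202.5, 194.94 and 197.71 TPM in TRF (-1.08 ± 0.04, SE, adjusted p = 5.31e-09). MAGI1, a junction scaffold (-1.83), the tensin TNS3 (-1.55), BCAS3 (-1.38) and the polarity protein PARD3 (-0.98) fell as well.

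The 2 members of that group outside the call were ASTN2 and DIAPH3. ASTN2, astrotactin 2, spans 989.8 kb and was at 7.46, 8.08 and 7.59 TPM in TRF + DDP, against 7.38, 7.58 and 7.08 TPM in TRF. The groups overlapped and the change was 0.06 ± 0.06 (SE, adjusted p = 0.44), the only positive one among the 49. DIAPH3, another formin, changed by -0.10 ± 0.11 (SE, adjusted p = 0.498).

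Of the 10 members tested for transcription, chromatin and RNA, 8 fell. They were the coactivator ZMIZ1 (-1.63), the lysine methyltransferase SMYD3 (-1.62), the RNA demethylase FTO (-1.34), ATXN1 (-1.12), the homeobox factor CUX1 (-1.08), the nuclease-domain protein SND1 (-1.03), JAZF1 (-1.02) and TCF7L2, a factor of the Wnt pathway (-0.82). The corepressor RERE changed by -0.19 ± 0.11 (SE, adjusted p = 0.163) and the RNA-binding protein MSI2 by -0.34 ± 0.14 (SE, adjusted p = 0.0579). ZBTB20, the zinc finger repressor left untested, was at 0.45, 0.42 and 0.57 TPM in TRF + DDP, 0.71, 0.93 and 0.54 TPM in TRF, 1.23, 0.9 and 0.72 TPM in DDP and 1.19, 0.61 and 0.59 TPM in CON.

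**Figure D2:**
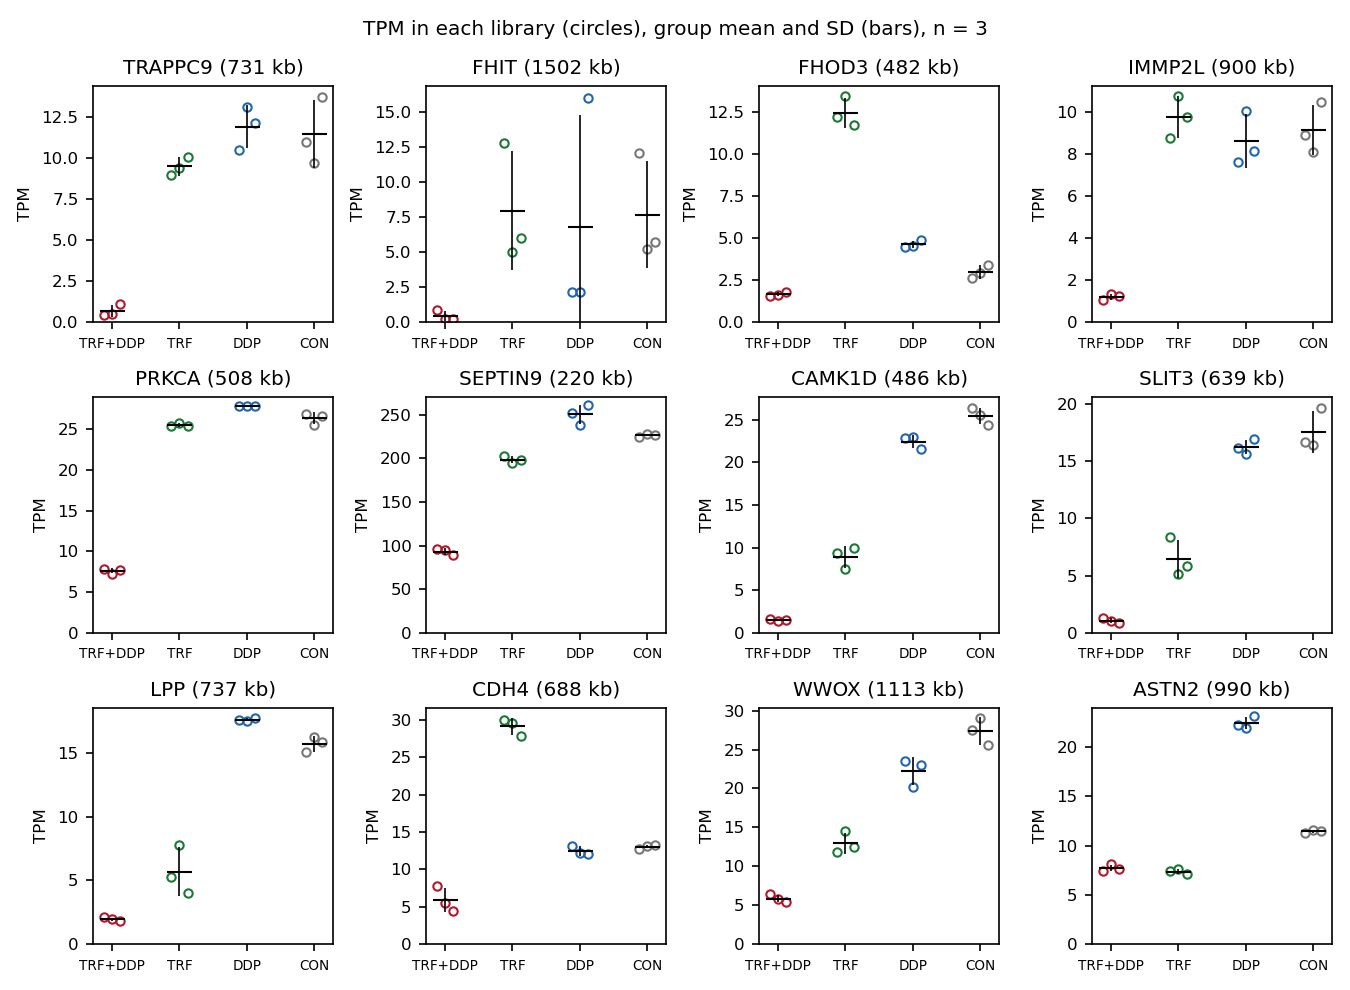
TPM (y axis, starting at 0) of 12 members in each library, with the group mean and SD as bars (n = 3). TRF + DDP is the lowest group for 11 of them, at 0.44 to 1.11 TPM for TRAPPC9, and ASTN2 is shown as a member whose TRF + DDP and TRF libraries overlapped (7.46 to 8.08 TPM and 7.08 to 7.58 TPM).

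RefSeq windows of 250 bases upstream of the start (GRCh38.p14) were found for 43 of the 50 members, and 36 of these began within 1000 bases of the GENCODE start. FHOD3, IMMP2L and GPHN are shown as members with large falls, and ASTN2 as the member with the only positive change in TRF + DDP against TRF. Capitals mark the GC box GGGCGG or its reverse complement CCGCCC, overlapping matches included. They lie at chr18:36297463-36297712 (plus strand), chr7:111562493-111562742 (minus strand), chr14:66507897-66508146 (plus strand) and chr9:117415058-117415307 (minus strand).
FHOD3: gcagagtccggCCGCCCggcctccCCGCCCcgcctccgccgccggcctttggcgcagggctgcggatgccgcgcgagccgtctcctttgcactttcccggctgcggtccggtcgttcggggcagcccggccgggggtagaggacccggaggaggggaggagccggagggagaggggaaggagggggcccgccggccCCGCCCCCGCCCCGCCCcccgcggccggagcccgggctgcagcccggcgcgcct
IMMP2L: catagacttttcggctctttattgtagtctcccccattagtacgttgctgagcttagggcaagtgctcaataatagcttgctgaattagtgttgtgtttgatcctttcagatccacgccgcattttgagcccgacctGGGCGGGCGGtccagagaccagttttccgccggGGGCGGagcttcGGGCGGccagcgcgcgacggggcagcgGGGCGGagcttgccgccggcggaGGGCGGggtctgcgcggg
GPHN: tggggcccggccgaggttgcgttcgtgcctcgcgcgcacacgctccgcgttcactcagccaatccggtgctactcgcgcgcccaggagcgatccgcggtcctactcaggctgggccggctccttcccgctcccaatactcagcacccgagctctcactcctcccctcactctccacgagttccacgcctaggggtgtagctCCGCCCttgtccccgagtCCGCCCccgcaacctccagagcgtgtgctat
ASTN2: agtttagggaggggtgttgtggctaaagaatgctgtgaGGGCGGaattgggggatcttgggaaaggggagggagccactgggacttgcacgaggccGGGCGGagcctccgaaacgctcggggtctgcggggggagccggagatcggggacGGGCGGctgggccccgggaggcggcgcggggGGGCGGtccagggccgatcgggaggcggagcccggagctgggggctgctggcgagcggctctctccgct
These windows held 5 matches in FHOD3, 6 in IMMP2L, 2 in GPHN and 4 in ASTN2. A GC box was present in 28 of the 43 member windows (65.1%), against 54.3% of 21566 windows of protein-coding genes. TATAAA or TTTATA was present in 1 member window (2.33%), against 8.97%. The G and C content had a median of 66.4% in member windows and 62.0% in windows of protein-coding genes.

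The drug was next compared with no drug in cells that were not restricted. Of the 49 members tested, 0 were lower in DDP than in CON and 1 was higher, where 0.159% of all genes tested were called lower and 1.86% higher (0.118% and 1.77% of protein-coding genes). At an unadjusted p under 0.05, 3 members were lower and 14 higher, with no share of all genes counted at that limit. The median change was 0.05, and the median member stood at 104% of its CON mean, against 0.07 and 105% for protein-coding genes. The member called was ASTN2, with 22.23, 21.99 and 23.17 TPM in DDP, against 11.23, 11.61 and 11.46 TPM in CON (0.92 ± 0.06, SE, adjusted p = 5.03e-06, limma). Its DDP libraries were the highest of the 12. FHOD3 changed by 0.50 ± 0.10 (SE, adjusted p = 0.00527) and WWOX by -0.29 ± 0.09 (SE, adjusted p = 0.0608), neither of which met the call.

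Of the other 771 long genes, 1 was lower and 14 were higher in DDP than in CON, with a median change of 0.10. The gene that was lower, named after its values were seen, was SPOCK1 (623.1 kb), at 0.8, 0.46 and 0.53 TPM in DDP, against 2.15, 1.03 and 1.16 TPM in CON (-0.59 ± 0.18, SE, adjusted p = 0.0481). With 0 called, this call was lost without CON replicate 1 or 3, DDP replicate 1 or 3, TRF replicate 1 or 3, or TRF + DDP replicate 1 or 2. Among other long genes called higher with a mean of 5 TPM or more, the largest rises were in GALNT18, which starts O-linked glycans, and in MICAL2, an enzyme that oxidises actin. GALNT18 was at 14.99, 15.0 and 13.94 TPM in DDP, against 7.08, 6.7 and 7.75 TPM in CON (0.94 ± 0.10, SE, adjusted p = 8e-05). MICAL2 was at 22.01, 21.13 and 23.2 TPM in DDP, against 12.39, 11.92 and 12.4 TPM in CON (0.80 ± 0.07, SE, adjusted p = 1.88e-05).

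The difference between both drug effects was tested as an interaction, (TRF + DDP minus TRF) minus (DDP minus CON), at an adjusted p under 0.05. It was negative in all 49 members tested, with 45 called lower and 0 higher, against 16.3% and 13.5% of all genes tested and 18.3% and 14.2% of protein-coding genes. At an unadjusted p under 0.05 the counts were 46 and 0. The median interaction was -1.30 in the members and -0.54 in the other 771 long genes, 418 of which were called lower, against -0.01 for protein-coding genes as a whole. PRKCA had the smallest adjusted p of the members (-1.70 ± 0.07, SE, adjusted p = 9.09e-08), followed by FHOD3 (-2.85 ± 0.14, SE, adjusted p = 2.32e-07) and SEPTIN9 (-1.23 ± 0.06, SE, adjusted p = 2.37e-07). The 4 members not called were FHIT (-2.03 ± 0.93, SE, adjusted p = 0.138), PTPRK (adjusted p = 0.055), MSI2 (adjusted p = 0.203) and RERE (adjusted p = 0.463). ASTN2, level between TRF + DDP and TRF, had an interaction of -0.86 ± 0.09 (SE, adjusted p = 2.41e-05), beside its rise in DDP against CON. Of the calls, VPS13B (adjusted p = 0.0489), DIAPH3 (adjusted p = 0.0405) and RAD51B (adjusted p = 0.0318) lay nearest the threshold. All 3 were lost with no filter on TPM, or without CON replicate 1 or 2, DDP replicate 1 or 3, or TRF + DDP replicate 1 or 2. VPS13B and DIAPH3 were also lost without CON replicate 3, DDP replicate 2, TRF + DDP replicate 3 or TRF replicate 3. With replicate number as a block both were lost, and VPS13B was lost without TRF replicate 2.

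Restriction without the drug moved the members in both directions. In TRF against CON 17 of 49 members were lower and 6 higher, where 17.1% of all genes tested were called lower and 8.41% higher (16.2% and 8.82% of protein-coding genes). The median member changed by -0.39, the median of all genes tested by -0.11. CAMK1D had the largest fall, at 9.39, 7.46 and 9.94 TPM in TRF, against 26.35, 25.48 and 24.39 TPM in CON (-1.42 ± 0.09, SE, adjusted p = 8.89e-08). LPP followed with the TRF values above and 15.08, 16.26 and 15.88 TPM in CON (-1.36 ± 0.15, SE, adjusted p = 8.35e-06). SLIT3 was at 16.61, 16.35 and 19.64 TPM in CON and WWOX at 27.53, 29.07 and 25.54 TPM, with falls of 1.34 and 1.03 in TRF. None of these 4 overlapped between TRF and CON.

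The members that rose in TRF were FHOD3, CDH4, PRKCE, EPHB2, DENND1A and GPHN. FHOD3 stood at 2.59, 2.93 and 3.37 TPM in CON, below each of its TRF libraries, a rise of 1.76 (SE 0.10, adjusted p = 1.66e-08). CDH4 stood at 12.77, 13.12 and 13.23 TPM in CON, and rose by 1.10 (SE 0.13, adjusted p = 1.28e-05). PRKCE rose by 1.10, EPHB2 by 0.81, DENND1A by 0.64 and GPHN by 0.60. The call for GPHN was lost without CON replicate 1 or 3 or TRF replicate 3, and that for DENND1A without CON replicate 1. Of the 6, 5 were then lower in TRF + DDP than in TRF, and PRKCE was not called. Of the 17 members lower in TRF, 13 were lower again in TRF + DDP against TRF. Another 24 members were called in the second comparison only, so 42 fell with the drug from TRF levels that had gone down, up or neither. These 2 comparisons share the TRF libraries.

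When TRF was added to cisplatin (TRF + DDP against DDP), 47 of 49 members were lower and 0 higher (48 and 0 at an unadjusted p under 0.05), where 21.4% of all genes tested were called lower and 11.8% higher (21.7% and 12.2% of protein-coding genes). The median change was -1.65, and the median member stood at 26.2% of its DDP mean, against 52.7% for the other 771 long genes and 93.2% for protein-coding genes. CAMK1D had the largest fall, with the TRF + DDP values above against 22.82, 22.92 and 21.5 TPM in DDP (-3.22 ± 0.09, SE, adjusted p = 6.02e-11). SLIT3 was at 16.15, 15.63 and 16.9 TPM in DDP (-3.05 ± 0.14, SE, adjusted p = 2.15e-09), and TRAPPC9 fell by 2.97 (SE 0.16, adjusted p = 6.87e-09). The 2 members not called were PRKCE (0.10 ± 0.13, SE, adjusted p = 0.544) and PTPRK (-0.51 ± 0.15, SE, adjusted p = 0.00749). The call for FHIT (adjusted p = 0.0238) was lost without TRF + DDP replicate 2 or 3. Among the other long genes 472 (61.2%) were lower.

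Protein-coding genes outside the 50 were divided by span with no other choice. In TRF + DDP against TRF the share called lower was 1.84% of 2179 genes under 10 kb, 2.09% of 3403 genes of 10 to 30 kb, 3.85% of 4029 genes of 30 to 100 kb and 12.8% of 1443 genes of 100 to 200 kb. It was 37.0% of 679 genes of 200 to 500 kb and 52.2% of 92 genes of at least 500 kb. The medians of the same classes were 0.10, 0.13, 0.07, -0.10, -0.40 and -0.69. In DDP against CON the medians stayed between 0.04 and 0.10 in every class. In TRF against CON the share called lower was between 14.5% and 22.4% in the 5 shorter classes and 31.5% in the longest. For TRF + DDP against DDP it was 13.9% under 10 kb and 69.6% from 500 kb up. Over 11874 protein-coding genes the rank correlation of span with the change was -0.26 in TRF + DDP against TRF and 0.11 in DDP against CON. Genes of one library set are not independent points.

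**Figure D3:**
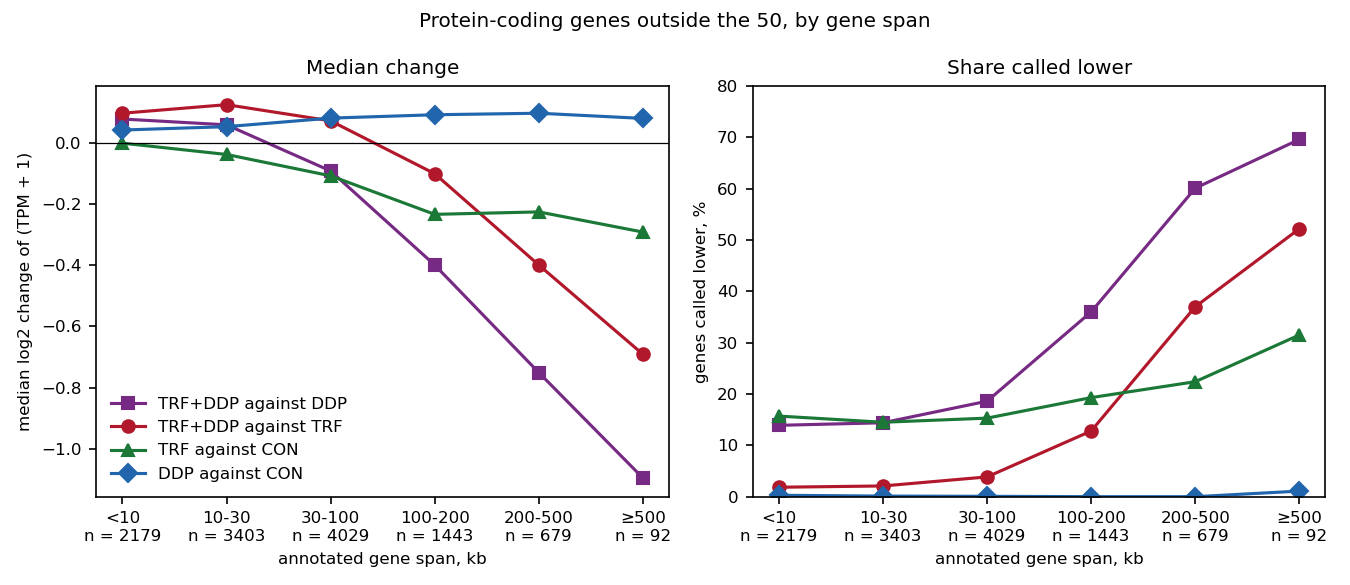
Median log2 change of TPM + 1 (left) and share of genes called lower in percent (right) for protein-coding genes outside the 50, in 6 classes of annotated gene span in kb, with one line for each of 4 comparisons and the number of genes under each class. In TRF + DDP against TRF the share called lower is 1.84% under 10 kb and 52.2% from 500 kb up, and in DDP against CON the line stays near 0.

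The 26 members of at least 500 kb had a median of -1.46 in TRF + DDP against TRF with 23 called lower, and the 23 members of 200 to 500 kb a median of -1.08 with 19 called lower. The rank correlation with span over the 49 members was -0.20 in this comparison and -0.44 in TRF + DDP against DDP, and for the length of the longest intron it was -0.27 and -0.30. For mature length it was 0.05 and -0.14. For the G and C content of the mature RNA it was -0.32 and 0.07, in the first of these comparisons larger in size than for span or intron. In TRF against CON it was -0.27 for span, -0.34 for mature length and 0.27 for G and C content.

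Mature RNA length and span go together, so they were separated. By mature RNA length alone the share called lower in TRF + DDP against TRF was 3.67% under 2 kb and 11.4% from 8 kb up, while the medians lay between 0.02 and 0.07. Within mature RNAs of 4 to 8 kb the median was 0.26 for 174 genes under 10 kb, -0.45 for 328 genes of 200 to 500 kb and -0.88 for 51 genes of at least 500 kb. Within mature RNAs under 2 kb it was 0.06 for 1137 genes under 10 kb and -0.53 for 31 genes of 200 to 500 kb. These classes contain the members. In TRF against CON the medians by mature RNA length were 0.01, -0.05, -0.17 and -0.28 from the shortest class to the longest. Long non-coding genes were set apart from the protein-coding ones. Of 107 tested with a span of at least 100 kb, 5 were lower and 8 higher in TRF + DDP against TRF, with a median of 0.03. Among all genes tested 6.1% and 10.2% were called there. In TRF + DDP against DDP 33 were lower and 4 higher (median -0.20), where 21.4% and 11.8% of all genes were called. In TRF against CON 20 were lower and 5 higher (median -0.07), where 17.1% and 8.41% were called. Their median interaction was -0.19. This limit of 100 kb is below the 200 kb used for the other long genes.

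**Figure D4:**
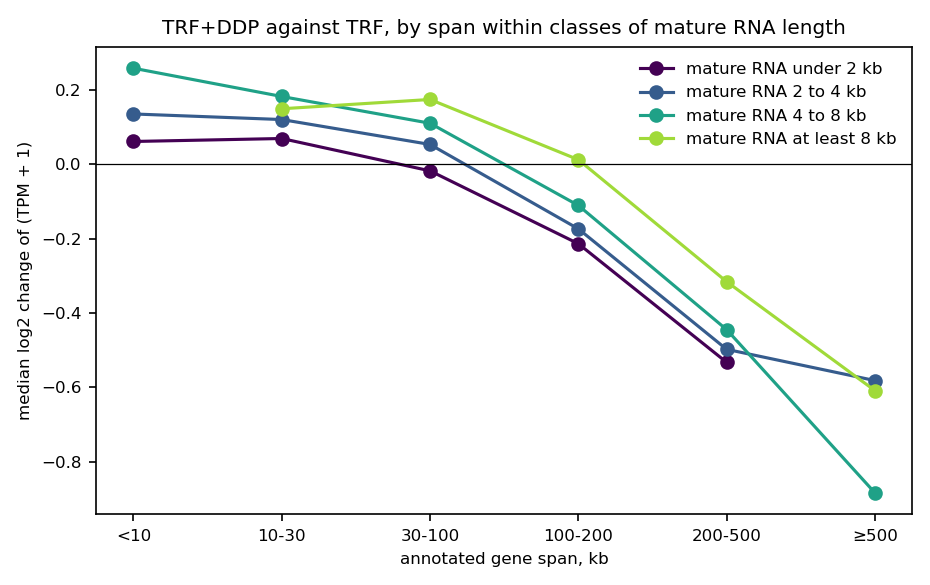
Median log2 change of TPM + 1 in TRF + DDP against TRF (y axis) by class of annotated gene span in kb (x axis), with one line for each class of mature RNA length, members included. Each of the 4 lines ends lower than it begins, and within mature RNAs of 4 to 8 kb the medians are 0.26 under 10 kb and -0.88 from 500 kb up.

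Partners of the members in complexes and families gave a comparison at the level of single genes. These families were chosen after the members' values were seen, so they are a description. Of the 9 exocyst subunits, which tether vesicles to the plasma membrane, only EXOC4 (813.5 kb) and EXOC6B (650.1 kb) were called lower in TRF + DDP against TRF. That is 22.2% of the subunits, with 0 called higher, where 6.1% of all genes tested were called lower and 10.2% higher. EXOC4 was at 3.79, 4.19 and 3.45 TPM in TRF + DDP, against 13.59, 15.98 and 16.0 TPM in TRF. EXOC3, which spans 28.78 kb, was at 33.34, 32.12 and 33.31 TPM in TRF + DDP, against 34.84, 32.49 and 36.92 TPM in TRF, so its libraries overlapped. The next longest subunits, EXOC6 (224.8 kb) and EXOC2 (208.0 kb), changed by -0.97 ± 0.45 (SE, adjusted p = 0.101) and -0.28 ± 0.08 (SE, adjusted p = 0.00895).

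Of the 14 TRAPP subunits TRAPPC9 alone was called lower, and TRAPPC6B (22.72 kb) was called higher (0.68 ± 0.13, SE, adjusted p = 0.000842). Each call is 7.14% of the subunits, near the 6.1% lower and 10.2% higher among all genes tested. TRAPPC10, the other subunit particular to TRAPPII, spans 94.23 kb and was at 8.97, 10.19 and 8.84 TPM in TRF + DDP, against 7.2, 10.14 and 8.63 TPM in TRF. Those libraries overlapped. Of 7 protein kinase C isoforms tested PRKCA, PRKCQ (153.2 kb, -0.91) and PRKCH (363.4 kb, -0.73) were lower, and PRKCD (36.71 kb) was higher, at 48.84, 53.0 and 48.97 TPM in TRF + DDP, against 32.64, 33.33 and 32.45 TPM in TRF. Of 11 septins tested SEPTIN9 alone was lower, and SEPTIN4, SEPTIN5 and SEPTIN11 were higher (0.64, 0.98 and 0.60). The shares called lower and higher were 42.9% and 14.3% of the kinase isoforms and 9.09% and 27.3% of the septins.

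**Figure D5:**
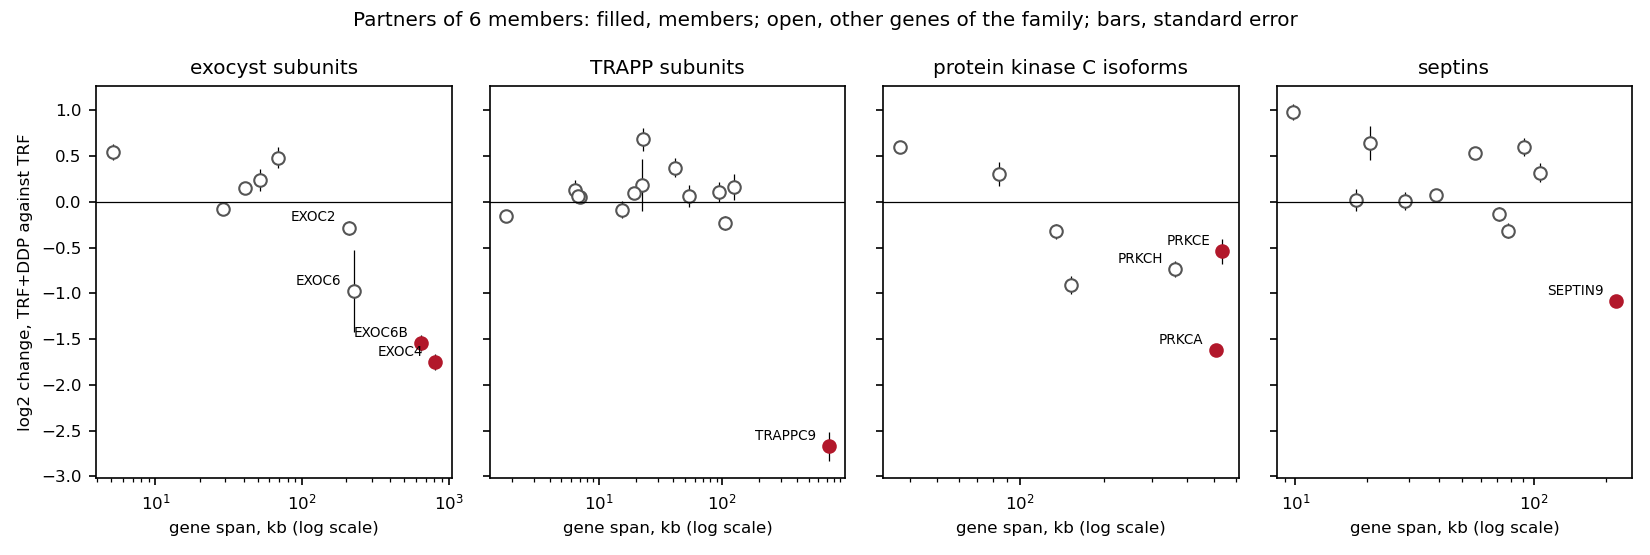
Log2 change of TPM + 1 in TRF + DDP against TRF (y axis, bars are standard errors) against gene span in kb on a log axis, for exocyst subunits, TRAPP subunits, protein kinase C isoforms and septins. Filled points are members of the 50 and open points their partners. TRAPPC9 stands at -2.67 while the other 13 TRAPP subunits lie between -0.23 and 0.68.

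Long genes outside the 50 followed the same named-gene rule. GMDS (621.9 kb), an enzyme of GDP-fucose synthesis, was at 0.72, 1.03 and 0.61 TPM in TRF + DDP, against 12.89, 10.04 and 6.3 TPM in TRF (-2.55 ± 0.23, SE, adjusted p = 3.24e-06). FBXL7 (439.6 kb), an F-box protein, was at 0.61, 0.7 and 0.63 TPM in TRF + DDP, against 5.65, 5.52 and 5.43 TPM in TRF (-1.99 ± 0.09, SE, adjusted p = 1.39e-08). CPQ (504.4 kb), a carboxypeptidase, was at 2.09, 1.9 and 1.97 TPM in TRF + DDP, against 9.05, 10.94 and 9.49 TPM in TRF (-1.86 ± 0.10, SE, adjusted p = 3.18e-08). None of these 3 overlapped between the groups. Some long genes went the other way. FBXW7 (215.5 kb), which directs cyclin E and MYC to degradation, was at 10.53, 10.98 and 10.4 TPM in TRF + DDP, against 4.54, 4.19 and 3.15 TPM in TRF (1.24 ± 0.16, SE, adjusted p = 3.96e-05). PLCL2 (287.9 kb), a phospholipase C-like protein, was at 13.74, 14.37 and 13.65 TPM in TRF + DDP, against 6.5, 7.52 and 5.21 TPM in TRF (1.02 ± 0.11, SE, adjusted p = 1.33e-05).

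Genes of transcription elongation, of cleavage, polyadenylation and the U1 snRNP, of transcription-coupled repair and of topoisomerases were examined by lists. Of 35 genes of RNA polymerase II elongation tested, 0 were lower and 6 higher in TRF + DDP against TRF (2 and 19 at an unadjusted p under 0.05, limma), with a median of 0.18. In this comparison 6.1% of all genes tested were called lower and 10.2% higher, the background for this list and the next. The calls higher were 17.1% of this list and 23.8% of the next. The higher genes included CCNK, the cyclin of CDK12 and CDK13, at 91.92, 91.03 and 86.56 TPM in TRF + DDP, against 48.73, 46.9 and 44.83 TPM in TRF (0.93 ± 0.06, SE, adjusted p = 1.83e-07). ELL2 of the super elongation complex rose by 0.89, and CCNT1 and CCNT2, cyclins of the elongation kinase CDK9, rose by 0.76 and 0.75. None of these 4 overlapped between the groups. Of 21 genes of cleavage, polyadenylation and the U1 snRNP, 0 were lower and 5 higher (3 and 10 at an unadjusted p under 0.05, limma). CSTF3 was at 35.85, 35.32 and 34.7 TPM in TRF + DDP, against 12.28, 15.59 and 13.55 TPM in TRF (1.30 ± 0.08, SE, adjusted p = 6.44e-08). CLP1 was at 58.32, 59.08 and 59.35 TPM in TRF + DDP, against 22.54, 25.53 and 22.42 TPM in TRF (1.29 ± 0.07, SE, adjusted p = 5.42e-08). CPSF4 and RBBP6 rose by 0.81 and 0.75. All 4 act in 3′ end formation. Against DDP, CCNK, ELL2, CSTF3, CLP1 and CPSF4 were also higher in TRF + DDP. CCNT1, CCNT2 and RBBP6 were not called there (adjusted p = 0.0955, 0.0584 and 0.971, limma). Their means in TRF were 8.04, 4.92 and 6.15 TPM, against 11.07, 6.64 and 9.41 TPM in CON. In TRF + DDP against DDP 3 of the 35 elongation genes were lower (8.57%) and 4 higher (11.4%). Among all genes tested 21.4% and 11.8% were called there. In TRF against CON 5 elongation genes were lower (14.3%) and 2 higher (5.71%), where 17.1% and 8.41% of all genes were called.

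Of 19 genes of transcription-coupled repair 0 were called in either direction in TRF + DDP against TRF (limma), with 0 lower and 9 higher at an unadjusted p under 0.05 and a median of 0.21. Of 6 topoisomerases, which relieve the supercoils ahead of the polymerase, 0 were called in this comparison (2 lower and 3 higher at an unadjusted p under 0.05). In TRF against CON 3 were lower, and in TRF + DDP against DDP 3, where 17.1% and 21.4% of all genes tested were called lower. In DDP against CON 0 genes of these 4 lists were called by limma. At an unadjusted p under 0.05 that comparison had 2 lower and 7 higher elongation genes, 1 and 3 repair genes, 0 and 5 genes of 3′ end formation and U1, and 1 and 2 topoisomerases. Across all genes tested 10.2% were called higher in TRF + DDP against TRF. That share is for the call by adjusted p and fold. At an unadjusted p under 0.05 the share of all genes was not counted, so the unadjusted counts of these lists have no background.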

How the data were processed

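RNA of 12 libraries was isolated with oligo(dT) beads and sequenced. Per the study's methods, SeqPrep and sickle served for trimming, HISAT2 for alignment and StringTie for assembly. The authors deposited TPM values per gene with the mean of each group. The submitters' processing notes also name edgeR. No source used here states the genome build, the counting of reads, its use of strand or any version. Reads of overlapping genes on opposite strands can therefore not be told apart. The depth behind a TPM value is unknown, so no counting interval is given and precision rests on 3 replicates per group. The study's legend for the transcriptome data calls the replicates of each group biological, and the labels do not say whether they were separate cultures, so p-values measure only the spread between these samples. Each group came from the sample titles, and 0 sample columns were left unmapped.

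Values were used as log2(TPM + 1), that is with a pseudocount of 1, which understates the change of low genes. The 13854 genes averaging 1 TPM or more were tested in 1 fit of the 4 groups with limma 3.58.1 (R 4.3.3; trend, robust empirical Bayes) and Benjamini-Hochberg adjustment over all genes tested. Calls rest on 2 limits, 0.05 for the adjusted p and 1.5 for the fold, and in the interaction on the adjusted p alone. The study's methods name DESeq2, which needs counts and was not used here. The steps were tested on simulated data. Spans, mature lengths and coordinates are from GENCODE v29, matched by Ensembl identifier for 58396 of 60664 identifiers.

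The members, function groups and lists were chosen with earlier results of these data known. Values per library are given for the 3 largest falls and 2 largest rises called in each comparison, the 3 smallest p-values of the interaction, the 3 longest members, the fragile site genes FHIT, WWOX and IMMP2L, the members on both sides of the TPM limit, other long genes averaging 5 TPM or more by the same kind of rule, and up to 4 genes per list. Other named genes were added after their values were seen. Results on 1 gene family are not reported here. Alternatives were quantile and TMM-style scaling, a pseudocount of 0.1, no filter, a filter of 1 TPM in each library, no trend, no fold threshold, a span of at least 300 kb, only the 2 groups compared, a replicate block, and each library left out. Figures were drawn with Python 3.11.15 and matplotlib 3.10.9.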

Additional observations from a re-analysis of the deposited data

Results flagged for a closer look

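Among the members chosen by the naming rule, 11 had a cisplatin effect under TRF that differed from the effect in complete medium in the interaction test (limma, adjusted p under 0.05). FHIT (adjusted p = 0.138) and PTPRK (adjusted p = 0.055), also chosen by the rule, were not called. The rule used the interaction p-value and the comparisons that make up the interaction. These calls were thus partly fixed beforehand and are a description. Among all genes tested 16.3% were called lower and 13.5% higher in the interaction. The difference, on the log2 scale and taken as the effect under TRF minus the effect in complete medium, was -2.85 for FHOD3, -2.73 for TRAPPC9, -2.21 for IMMP2L, -2.10 for CDH4 and -1.80 for CAMK1D. It was -1.72 for SLIT3, -1.70 for PRKCA, -1.30 for LPP, -1.23 for SEPTIN9, -0.86 for ASTN2 and -0.74 for WWOX. EXOC4, named after its values were seen, had -1.71. For ASTN2 the value came from a rise of 0.92 in DDP against CON beside 0.06 in TRF + DDP against TRF. No group has enough libraries for a check of single libraries that stand apart.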

How the results depend on the processing

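The counts of members lower in TRF + DDP against TRF (42), in TRF + DDP against DDP (47) and in the interaction (45) stayed within 1.5 times their value under every alternative run, and no result changed its direction. The number higher in DDP against CON was 1, and 2 with a pseudocount of 0.1 or 7 without the fold threshold. The number lower in TRF against CON was 17, and 30 without the fold threshold. With a library left out, 40 to 44 members were lower in TRF + DDP against TRF, 46 to 47 in TRF + DDP against DDP, 14 to 18 in TRF against CON and 42 to 45 in the interaction. Under TMM-style or quantile scaling 12 members were lower in TRF against CON, with ATXN1, EXOC4, FBXL17, FTO and MAGI1 lost in both. These scalings set the median of all genes to about 0, a shift of about 0.10 for TRF against CON, and took the share of called genes that were higher there to 46.6% and 49.8%, against 32.9% unscaled. In TRF + DDP against TRF that share was 52.4% and 49.6%, against 62.6%, in TRF + DDP against DDP 47.0% and 48.9%, against 35.5%, and in DDP against CON 82.0% and 78.6%, against 92.1%.

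For the other long genes lower in DDP against CON, 0 were called with no filter, with at least 1 TPM in every library, with no trend or with only the 2 groups compared, 7 without the fold threshold, and 0 to 1 with a library left out. Without the fold threshold 454 were lower in TRF + DDP against TRF and 352 in TRF against CON. From 300 kb up, 182 of 329 were lower in TRF + DDP against TRF, 80 in TRF against CON and 232 in TRF + DDP against DDP, from fewer genes. The median change of members in TRF + DDP against TRF was -1.45 with a pseudocount of 0.1 and -1.33 without TRF replicate 3.

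No pairing of samples by replicate number was visible, and the labels do not say whether same-numbered samples were handled together. Deviations of same-numbered libraries correlated at -0.082 to 0.079. With the replicate number as a block, 42 members were lower in TRF + DDP against TRF, 47 in TRF + DDP against DDP, 18 in TRF against CON and 43 in the interaction. Requiring 1 TPM in every library tested 43 members and left out TRAPPC9, FHIT, SLIT3, MAGI1, PTPRG and RAD51B, which fell below it. Depth limits low members such as FHIT, but by how much is unknown.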
